A study of Oryctolagus cuniculus with 16 samples.

Results

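The data describe how the response of the arterial media to increased flow differed between a straight artery and its bifurcation. Of the 16 RNA-seq libraries of the study, the 8 libraries from the media were taken, by the tissue given in the sample labels. The series compared the intima and the media of the basilar artery (BA), which is straight, and of the basilar terminus (BT), where the BA divides, in female New Zealand white rabbits. All 4 rabbits had surgery and were killed 24 h later. Rabbits 3 and 4 had sham surgery and normal flow, and in rabbits 5 and 6 both common carotid arteries were ligated, which raises flow through the BA. Each rabbit gave 1 medial library from the BA and 1 from the BT, so each of the 4 groups (BA sham, BA ligated, BT sham and BT ligated) held 2 rabbits. Ages were not stated. Tissue from several frozen sections was cut with a laser and combined for each library, so a library is an average over the wall of 1 rabbit at 1 location. The quantity of interest is the location by flow difference of each gene, the log2 change with ligation at the BT minus the log2 change with ligation at the BA. It equals the difference between ligated and sham rabbits in the BT to BA ratio, so each rabbit served as its own reference. A difference of 1 on the log2 scale is a factor of 2.

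The media is built of vascular smooth muscle cells (VSMCs) embedded in collagens, elastic fibres and proteoglycans. VSMCs contract through actin and myosin filaments that are anchored by linker proteins, and these filaments carry the load of the wall. Chaperones bind unfolded and damaged proteins, and some of them protect filament proteins in muscle under load. When flow rises in the vertebrobasilar circulation the BA widens, whereas the bifurcation is known as a site where intracranial aneurysms form, and wall shear stress differs between the sites.

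Named genes received 2154863 to 11219236 counts in the medial libraries, and the shallowest library was the BA of ligated rabbit 5. Expression is given as CPM, the counts of a gene relative to the total of its library, scaled by the trimmed mean of M values (TMM). The libraries held the RNA of VSMCs. All 15 contractile VSMC genes in the file had counts, and together they summed to 103622 to 166344 CPM, against 436 to 1542 CPM for the 11 endothelial markers and 3.45 to 18.9 CPM for the 13 brain markers, of which AQP4, MOG, MAG, RBFOX3 and NEFL were at 0 in all 8 libraries. The BA and the BT of rabbit 3 stood apart in the 5 blood cell genes, with 26.2 and 1.87 CPM against 1237 to 6125 CPM in the other libraries. In tissue pieces of this kind, fewer cells of a type and less RNA per cell cannot be told apart.

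Ligation changed 47 of 9368 genes differently at the bifurcation and in the straight artery, 0.502% of those tested (edgeR quasi-likelihood F test with rabbit as a block, q-value below 0.05). It was higher at the BT for 20 genes (0.213%) and lower at the BT for 27 genes (0.288%). Genes with a lower change at the BT included chaperones and linkers of the actin cytoskeleton, among them CRYAB, HSPH1, NEXN and PDLIM5. Among those with a higher change at the BT were matrix and secreted proteins such as TIMP1, EFEMP1, CTHRC1 and DCN, and the metalloreductase family members STEAP1 and STEAP2. APOD and CP had the smallest q-values of the higher genes, with differences of 2.80 ± 0.28 (SE, 2 rabbits per flow group) and 2.69 ± 0.30. The median difference of all genes tested was 0.12, with a 10th percentile of -1.90 and a 90th percentile of 3.42. With library size alone in place of TMM, the median was 0.41 and the split was 32 higher and 13 lower, so the balance of directions depended on the scaling. The 14 calls it ended were all in the lower group (ARID5B, NOV, ROCK1, BAG2, TARS, HIPK3, PTN, TSPAN2, WDFY3, SYNPO2, CTGF, UGP2, YAP1 and ACTA2). Without the rabbit term only APOD and CP passed (0.0213%), both higher, with the smallest q-value at 0.0426 and 602 genes below an unadjusted p of 0.05, against 850 genes with the block.

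**Figure D1:**
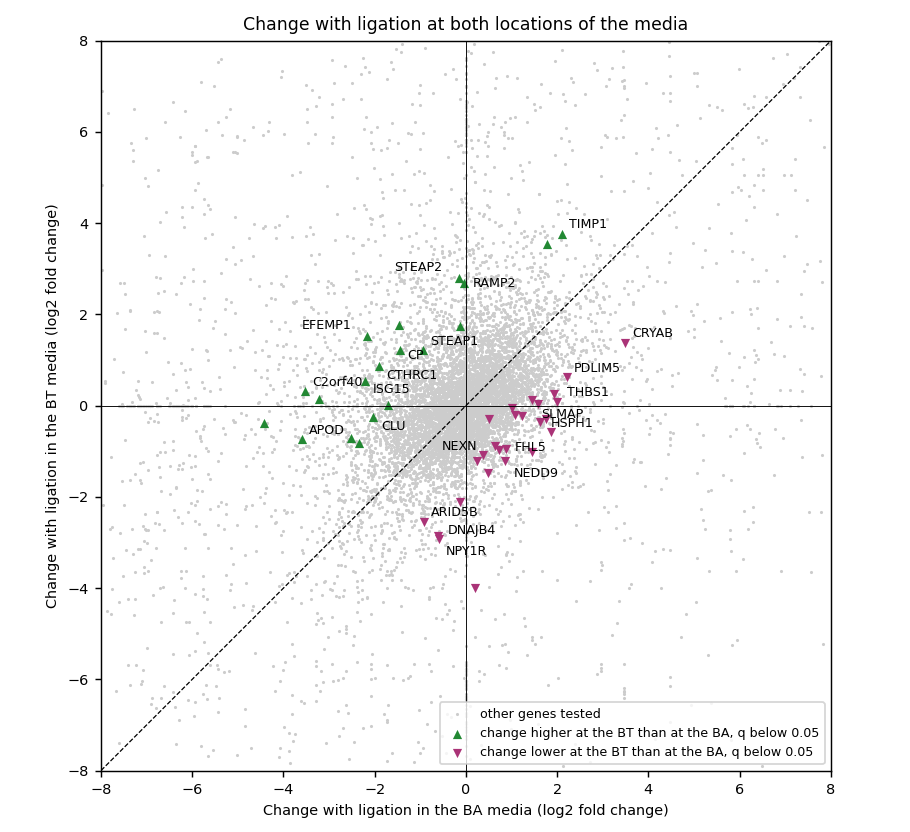
Change with ligation in the BA media (horizontal axis) against the change in the BT media (vertical axis), both as log2 fold change between 2 ligated and 2 sham rabbits. Grey points are other genes, triangles are the genes whose change differed between the locations, the dashed line marks equal change, and CRYAB lies to the lower right at 3.48 and 1.38; TM4SF18, CIART and 108 other genes lie beyond the axes, which end at 8.

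CRYAB, the small heat shock protein alpha B-crystallin, which binds desmin and other filament proteins in muscle, had the smallest q-value of the lower genes. In sham rabbit 3 it was at 3152 CPM in the BA and 4582 CPM in the BT, and in sham rabbit 4 at 2076 and 2432 CPM. In ligated rabbit 5 it was at 30182 CPM in the BA and 8554 CPM in the BT, and in ligated rabbit 6 at 28151 and 9721 CPM. All ligated values were thus above all sham values, and within the ligated rabbits the BA was far above the BT. CRYAB rose with ligation by 3.48 ± 0.32 at the BA (log2, q = 2.92e-05) and by 1.38 ± 0.29 at the BT (q = 0.023), a difference of -2.06 ± 0.22 (q = 4.35e-06). It was the 1 gene that also passed with edgeR's version 4 form of the test.

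HSPH1, a large heat shock protein that exchanges the nucleotide of HSP70 chaperones, had the same order without a rise at the BT. Its expression went from 324 CPM in the BA to 495 CPM in the BT of rabbit 3 and from 203 to 428 CPM in rabbit 4, but from 789 to 302 CPM in rabbit 5 and from 839 to 420 CPM in rabbit 6. Ligation raised it at the BA (1.63 ± 0.32, q = 0.0111), whereas the change at the BT was -0.35 ± 0.31 (q = 0.656), a difference of -2.04 ± 0.34 (q = 0.0025). DNAJB4, an HSP40 partner of HSP70, was at 471 and 551 CPM in the BA and BT of rabbit 3, 38.6 and 181 CPM in rabbit 4, 131 and 36.1 CPM in rabbit 5 and 204 and 64.5 CPM in rabbit 6. The BA levels of the 2 sham rabbits enclosed those of the ligated rabbits, and the result came from the opposite slopes within rabbits (-2.97 ± 0.50, q = 0.00267). The DNAJB4 difference did not pass with limma-voom, filterByExpr or a robust prior. BAG2, a co-chaperone of HSP70, also passed at -2.04 ± 0.44 (q = 0.0256), but not without rabbit 3 or rabbit 5. In the list of heat shock and chaperone genes, which held neither DNAJB4 nor BAG2, CRYAB and HSPH1 were lower and none was higher among 9 tested, and the median difference was -0.78 against 0.12 for all genes. This list and those below were chosen with earlier results of these data known, so their counts and medians are description only. Counts of members above or below 0 stand beside a median of 0.12 for all genes, which itself lies above 0. Without CRYAB the list summed to 4585 and 4965 CPM in the BA of rabbits 5 and 6. The other libraries summed to 2805 to 4166 CPM without it. CRYAB thus carried most of the list's summed level in ligated rabbits, but 2076 of 4881 CPM in the BA of sham rabbit 4. HSPA8 did not pass (-1.32, q = 0.082), and the chaperones of the endoplasmic reticulum, HSPA5 and HSP90B1, were at 0.02 and -0.06.

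The lower group also held NEXN, PDLIM5 and SYNPO2, which bind actin filaments, and the kinase ROCK1. NEXN, nexilin, which binds F-actin, went from 3589 to 4640 CPM from BA to BT in rabbit 3 and from 2498 to 3185 CPM in rabbit 4, against 4161 to 1838 CPM in rabbit 5 and 5238 to 2393 CPM in rabbit 6. Its slopes were alike within each flow group and opposite between them, and the difference was -1.52 ± 0.24 (q = 0.00162). Neither location passed on its own for NEXN, with changes of 0.63 at the BA (q = 0.313) and -0.89 at the BT (q = 0.139). PDLIM5, a PDZ and LIM domain protein of actin filaments, was at 1140 and 1541 CPM in the BA and BT of rabbit 3, 1013 and 2069 CPM in rabbit 4, 4827 and 2547 CPM in rabbit 5 and 5145 and 3007 CPM in rabbit 6. It rose at the BA by 2.21 ± 0.26 (q = 0.000357), the BT change was 0.62 ± 0.25 (q = 0.262), and the difference was -1.58 ± 0.27 (q = 0.00267). All ligated libraries exceeded all sham libraries for PDLIM5, but by more in the BA.

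SLMAP, a membrane protein of muscle cells, was at 2807 and 4233 CPM in the BA and BT of rabbit 3 and at 2232 and 3094 CPM in rabbit 4. After ligation it was at 6566 CPM in the BA and 3250 CPM in the BT of rabbit 5, and at 7239 and 4690 CPM in rabbit 6, a difference of -1.35 ± 0.24 (q = 0.00428). It rose at the BA (1.45 ± 0.27, q = 0.00743), and the BT groups overlapped. FHL5, a LIM-only protein that co-activates transcription, ran from 559 to 874 CPM in rabbit 3, from 255 to 620 CPM in rabbit 4, from 684 to 301 CPM in rabbit 5 and from 805 to 472 CPM in rabbit 6 (-1.94 ± 0.33, q = 0.00276). Its BT to BA ratio was above 1 in both sham rabbits and below 1 in both ligated rabbits. ROCK1, the kinase that inhibits myosin phosphatase (-1.50 ± 0.30, q = 0.0107), SYNPO2, an actin-bundling protein of the Z-disc (-2.18 ± 0.50, q = 0.0394), and TSPAN2, a tetraspanin (-1.91 ± 0.42, q = 0.0307), were lower as well. ROCK1 did not pass without rabbit 4 or rabbit 6, SYNPO2 without rabbit 5, or TSPAN2 without rabbit 4 or rabbit 5.

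ACTA2, smooth muscle alpha-actin, had a small difference of -0.76 ± 0.18 (q = 0.0497). Its level was 75366 CPM in the BA and 89118 CPM in the BT of rabbit 3, 65400 and 62793 CPM in rabbit 4, 92084 and 65920 CPM in rabbit 5 and 106384 and 58628 CPM in rabbit 6. The call was lost without rabbit 3 or rabbit 6, and reads shared with other actin genes make the level uncertain. Of the 15 contractile VSMC genes tested, SYNPO2 and ACTA2 were lower and none was higher, with a median difference of -0.57 and 12 genes below 0. With library size alone the list median was -0.28 beside 0.41 for all genes, so relative to all genes it stayed at -0.69 under both scalings. MYH11, smooth muscle myosin heavy chain, and TPM2, a tropomyosin, were at -0.47 and 0.07 and did not pass.

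**Figure D2:**
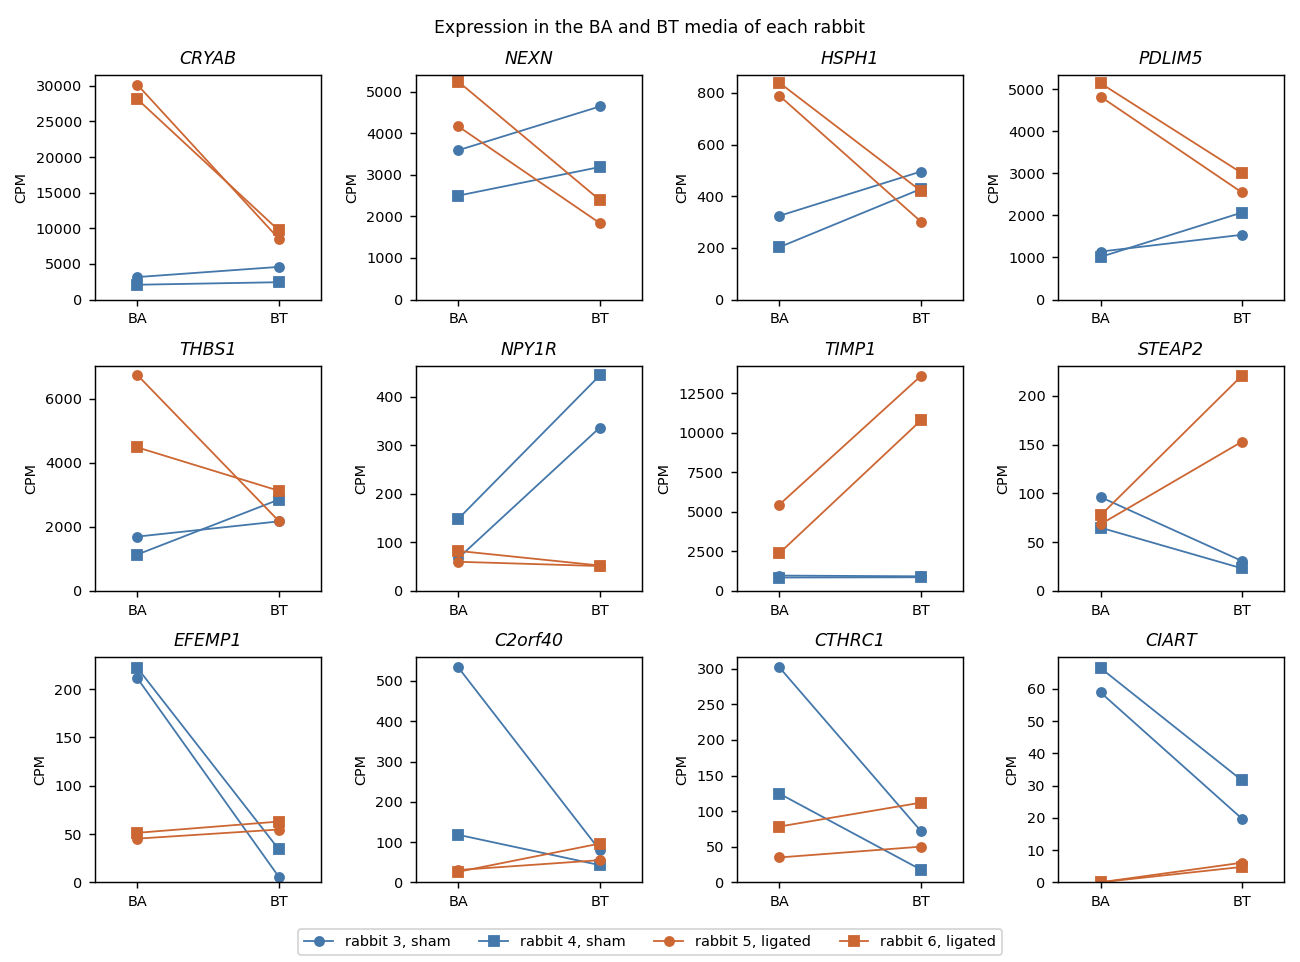
CPM (vertical axes, linear, each from 0) in the BA and BT media of each rabbit for 12 genes, with a line joining both locations of a rabbit, blue for sham and orange for ligated rabbits. For CRYAB, NEXN, HSPH1, PDLIM5, THBS1 and NPY1R the ligated lines run downward from BA to BT while the sham lines run upward, and for TIMP1, STEAP2, EFEMP1, C2orf40, CTHRC1 and CIART the ligated lines run upward.

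Several matricellular and signalling genes of the lower group passed at the BA and not at the BT. THBS1, thrombospondin 1, a matricellular protein that activates TGF-beta, was at 1694 and 2169 CPM in the BA and BT of rabbit 3 and at 1134 and 2848 CPM in rabbit 4. Ligated rabbit 5 had 6740 CPM in the BA and 2186 CPM in the BT, and rabbit 6 had 4480 and 3126 CPM. THBS1 rose at the BA by 1.99 ± 0.31 (q = 0.00225), whereas its BT change was 0.08 ± 0.30 (q = 0.939), a difference of -1.91 ± 0.33 (q = 0.00276). The THBS1 difference did not pass with DESeq2, filterByExpr or a robust prior. The CCN family members NOV (-1.28 ± 0.25, q = 0.0106) and CTGF (-1.08 ± 0.25, q = 0.0405) and the transcriptional co-activator YAP1 (-1.46 ± 0.34, q = 0.0496) were in the lower group too. NOV and YAP1 rose at the BA by 1.08 ± 0.25 (q = 0.0294) and 1.23 ± 0.29 (q = 0.0332), and neither passed at the BT. NOV did not pass without rabbit 5, and CTGF and YAP1 did not pass without rabbit 4, rabbit 5 or rabbit 6. In the list of YAP and mechanical response genes CTGF was lower and none was higher among 12 tested (median -0.55). ANKRD1, an ankyrin-repeat protein of muscle in that list, rose at both locations, by 6.94 at the BA (q = 1.07e-05) and 7.05 at the BT (q = 1.07e-05), with a difference of 0.04 ± 0.46.

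NPY1R, ARID5B and TSPAN2 of the lower group passed at the BT and not at the BA, whereas PDE1A and NEDD9 passed at neither location on its own. NPY1R, the Y1 receptor through which neuropeptide Y constricts cerebral arteries, was at 67.4 CPM in the BA and 336 CPM in the BT of rabbit 3 and at 148 and 443 CPM in rabbit 4. In ligated rabbits it was at 59.9 and 51.2 CPM (rabbit 5) and 82.3 and 52.2 CPM (rabbit 6), so the higher BT level of sham rabbits was not seen after ligation. It fell by 2.91 on the log2 scale at the BT (SE 0.43, q = 0.00248), the BA change was -0.60 ± 0.40 (q = 0.527), and the difference was -2.40 ± 0.45 (q = 0.00665). Among 21 tested vasoactive receptors, channels and cyclic nucleotide enzymes NPY1R was lower and none was higher, with a median of -0.65. PDE1A, a calcium-dependent phosphodiesterase outside that list, also passed (-2.85 ± 0.56, q = 0.00993), but not without rabbit 5.

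ARID5B, a DNA-binding protein, ran from 689 to 1137 CPM from BA to BT in rabbit 3 and from 662 to 1166 CPM in rabbit 4, and from 408 to 216 CPM in rabbit 5 and from 305 to 179 CPM in rabbit 6. All ligated libraries were below all sham libraries, and the gap was wider at the BT. Its expression fell by 2.55 at the BT (log2, SE 0.30, q = 0.000381), with -0.92 ± 0.29 at the BA (q = 0.113) and a difference of -1.61 ± 0.31 (q = 0.00993). NEDD9, a scaffold of focal adhesion signalling, was at 146 and 294 CPM in rabbit 3, 130.4 and 332 CPM in rabbit 4, 264 and 157 CPM in rabbit 5 and 235 and 114 CPM in rabbit 6, in the BA and the BT respectively. Its sham rabbits were higher in the BT and its ligated rabbits higher in the BA (-2.07 ± 0.39, q = 0.00782). Neither NPY1R nor NEDD9 passed without rabbit 6. The rest of the lower group was COL11A1, a fibrillar collagen (-2.50), TARS, a tRNA synthetase (-1.44), the kinase HIPK3 (-1.72), the growth factor PTN (-5.33 ± 1.17, with 0 to 492 counts per library), the autophagy adaptor WDFY3 (-1.54) and UGP2, which makes UDP-glucose (-1.66). COL11A1, TARS, PTN, WDFY3 and UGP2 did not pass without rabbit 6, HIPK3, WDFY3 and UGP2 did not pass without rabbit 5, and HIPK3 and WDFY3 did not pass without rabbit 4.

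TM4SF18, a tetraspan membrane protein, was the exception in size. It had 0 counts in the BA of both sham rabbits, 55 and 51 counts in their BT (14.7 and 7.61 CPM), 312 and 282 CPM in the BA and BT of rabbit 5 and 44.8 and 168 CPM in those of rabbit 6. Ligated libraries were above all sham libraries at both locations. Taking 3 counts per library, the most that a count of 0 allows at 95%, TM4SF18 was at least 499.5-fold higher in the ligated BA. At the BT it was 20.2-fold higher after ligation, so the 2 changes differed by at least 24.75-fold. The fitted difference of -8.29 (q = 0.000293) depends on the values given to the empty libraries. TM4SF18 was also at 17.0 to 1560 CPM in the intimal libraries, and the part of intimal cells in the medial values was not tested. In the RefSeq annotation of assembly mOryCun1.1, TM4SF18 and CP are neighbours with 0 protein-coding genes between them, yet their differences had opposite signs.

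TIMP1, an inhibitor of matrix metalloproteinases secreted into the matrix, rose with ligation at both locations and more at the BT. Sham values lay between 845 and 969 CPM at both locations. In rabbit 5 TIMP1 was at 5456 CPM in the BA and 13586 CPM in the BT, and in rabbit 6 at 2386 and 10777 CPM. The rise was 2.11 ± 0.33 at the BA (q = 0.00225) and 3.77 ± 0.35 at the BT (q = 6.18e-05, all log2), a difference of 1.77 ± 0.27 (q = 0.000953). It was the 1 gene of 18 tested proteases and inhibitors of the matrix to pass, where the median was 0.88. CLIC1, an intracellular chloride channel protein, also increased at the BT (3.55 ± 0.53, q = 0.00281) more than at the BA (1.77 ± 0.49, q = 0.0744), and was not called without rabbit 5 or rabbit 6.

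STEAP2 and STEAP1 belong to a family of haem-containing membrane proteins linked to metal reduction, and are adjacent in mOryCun1.1. STEAP2 was at 96.2 and 30.7 CPM in the BA and BT of rabbit 3, 64.8 and 23.1 CPM in rabbit 4, 68.3 and 153 CPM in rabbit 5 and 77.3 and 221 CPM in rabbit 6. The BA values of both flow groups overlapped, while at the BT the ligated values were well above the sham values. STEAP2 rose at the BT by 2.80 ± 0.43 (q = 0.00285) with -0.14 ± 0.40 at the BA (q = 0.915), a difference of 2.91 ± 0.50 (q = 0.00276). For STEAP1 the levels were 472 and 176 CPM in rabbit 3, 270.5 and 141 CPM in rabbit 4, 258 and 326 CPM in rabbit 5 and 128 and 411 CPM in rabbit 6, in the BA and the BT respectively. The BT to BA ratio of STEAP1 was thus below 1 in sham rabbits and above 1 in ligated rabbits, a difference of 2.19 ± 0.42 (q = 0.00993), but neither location passed on its own. Neither gene passed without rabbit 6. CP, the ferroxidase ceruloplasmin, was the 1 call among 13 tested iron, acute phase and complement genes, of which 11 were above 0 (median 0.86).

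EFEMP1, CTHRC1 and C2orf40 were higher in the BA than in the BT of both sham rabbits. The fitted sham comparison had that sign for all 20 higher genes, though TIMP1 was near 0 (-0.02). EFEMP1, the fibulin-like glycoprotein of elastic fibres, was at 212 CPM in the BA and 5.87 CPM in the BT of rabbit 3 and at 222 and 34.3 CPM in rabbit 4. In ligated rabbits it was at 45.2 and 54.6 CPM (rabbit 5) and 51.2 and 62.9 CPM (rabbit 6), so no such gap was seen after ligation. The difference was 4.10 ± 0.64 (q = 0.00131) but did not pass with limma-voom. CTHRC1, a secreted collagen-associated protein of injured arteries, ran from 302 to 72.0 CPM from BA to BT in rabbit 3 and from 125 to 17.7 CPM in rabbit 4, against 34.9 to 50.0 CPM in rabbit 5 and 78.3 to 112 CPM in rabbit 6 (2.95 ± 0.50, q = 0.00276). C2orf40, which encodes the secreted peptide augurin, ran from 534 to 79.7 CPM in rabbit 3, from 118 to 42.7 CPM in rabbit 4, from 30.5 to 54.9 CPM in rabbit 5 and from 26.1 to 96.2 CPM in rabbit 6 (3.49 ± 0.53, q = 0.000972). C2orf40 fell at the BA by 3.53 on the log2 scale (SE 0.61, q = 0.0054) and was at 0.31 at the BT (q = 0.857). For EFEMP1 and CTHRC1 no location passed on its own, with BA changes of -2.17 (q = 0.0621) and -1.90 (q = 0.151).

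DCN and LUM, adjacent genes for the collagen-binding proteoglycans decorin and lumican, were higher too, at 1.61 ± 0.35 (q = 0.0256) and 1.64 ± 0.37 (q = 0.035). DCN was at 6453 and 1513 CPM in the BA and BT of rabbit 3, 4033 and 1860 CPM in rabbit 4, 1787 and 1140 CPM in rabbit 5 and 1424 and 2251 CPM in rabbit 6. Its sham BA levels were above all other libraries. DCN and LUM fell at the BA, by 1.71 (q = 0.0108) and by 2.52 on the log2 scale (q = 0.0059), as did CCDC80, a secreted matrix-binding protein (fell by 2.35, q = 0.000799, difference 1.54 ± 0.36). None of the 3 passed without rabbit 3 or rabbit 6, nor CCDC80 without rabbit 5. EFEMP1, DCN and LUM were the 3 calls, all higher, among 14 tested small leucine-rich proteoglycans and fibre-associated matrix genes, with a median of 1.27. Over all genes tested 0.502% were called, but the list was chosen with earlier results of these data known. OGN, ECM2 and ABI3BP of that list fell at both locations, and their differences of -0.91, -0.54 and -0.24 did not pass. Of 22 collagens and matrix glycoproteins THBS1 alone passed, and their median of 0.30 was near that of all genes.

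DCN and LUM are also fibroblast markers. The 12 leptomeningeal and perivascular fibroblast markers in the file, DCN and LUM among them, summed to 8843 CPM in the BA and 2737 CPM in the BT of rabbit 3 and to 5666 and 3470 CPM in rabbit 4, against 2968 and 1943 CPM in rabbit 5 and 2360 and 3329 CPM in rabbit 6. DCN and LUM made up most of these sums. The other 10 markers summed to 811 and 539 CPM in the BA and BT of rabbit 3, 1071 and 1203 CPM in rabbit 4, 973 and 549 CPM in rabbit 5 and 769 and 665 CPM in rabbit 6, so without DCN and LUM the sham BA did not stand out. DPEP1 was at 0 in all 8 libraries. Of 11 markers tested DCN and LUM passed, 7 were above 0 (median 0.93), and ALDH1A2, TBX18, SLC13A4 and SLC22A8 were below 0. The part of fibroblasts in the matrix results was not tested.

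**Figure D3:**
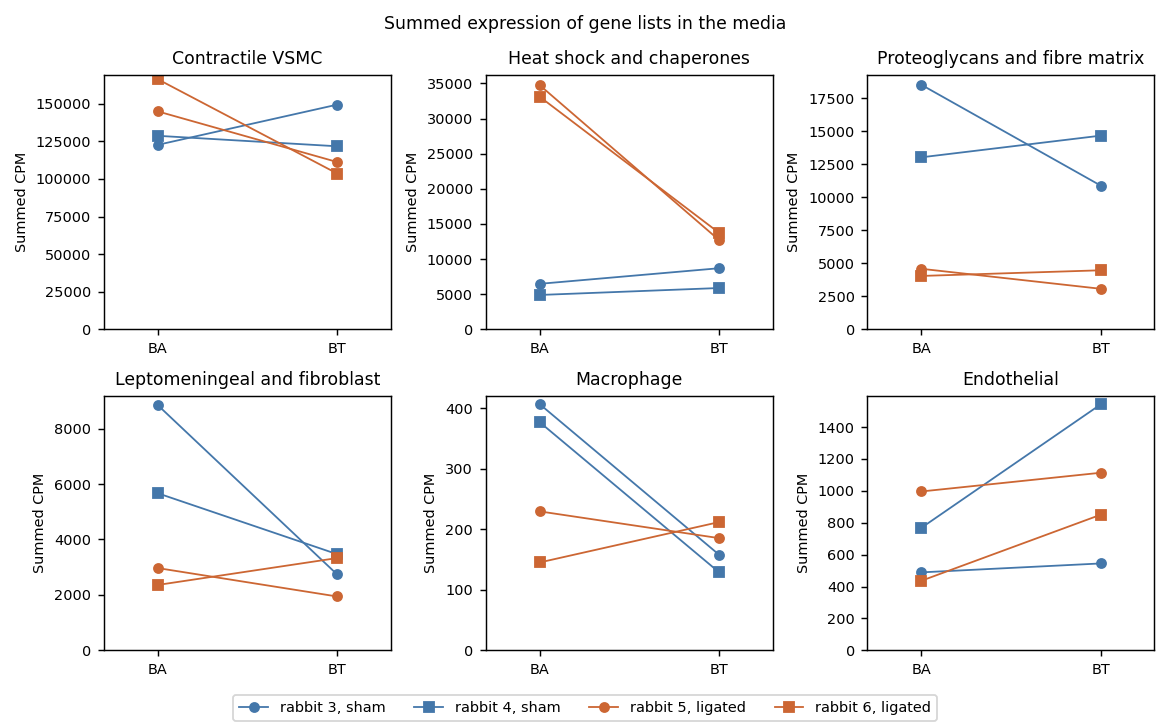
Summed CPM (vertical axes, linear, each from 0) of 6 gene lists in the BA and BT media of each rabbit, with blue lines for sham and orange lines for ligated rabbits. Heat shock and chaperone genes summed to 34766 and 33116 CPM in the ligated BA against at most 13746 CPM elsewhere, most of it from CRYAB, and the fibroblast markers, most of them DCN and LUM, and the macrophage markers were highest in the sham BA.

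ISG15 and CD74, which act in the interferon response and in antigen presentation, were in the higher group. ISG15, a ubiquitin-like protein induced by interferon, ran from 141 to 55.5 CPM from BA to BT in rabbit 3, from 827 to 325 CPM in rabbit 4, from 128 to 162 CPM in rabbit 5 and from 82.8 to 393 CPM in rabbit 6. Levels in rabbit 4 were far above those in rabbit 3, while the BT to BA ratio was alike in both (2.65 ± 0.47, q = 0.00379). ISG15 was the 1 call of 12 tested interferon response genes, 9 of which were above 0 (median 2.58), and it did not pass without rabbit 6. CD74, the invariant chain of MHC class II, fell at the BA by 3.22 on the log2 scale (q = 0.00784), with 0.14 at the BT and a difference of 3.39 ± 0.72 (q = 0.0232), and was not called without rabbit 6 either. The 11 macrophage markers summed to 407 and 158 CPM in the BA and BT of rabbit 3, 377 and 129 CPM in rabbit 4, 229 and 185 CPM in rabbit 5 and 145 and 212 CPM in rabbit 6. None of the 9 macrophage markers tested passed in edgeR, DESeq2 or limma-voom, and their median was 2.52. In edgeR 4 of the 9 were below an unadjusted p of 0.05, against 850 of all 9368 genes tested. Of the 9 markers 8 were above 0, and as many were above the median of all genes (0.12). The part of macrophages in the CD74 result was not tested.

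RAMP2, which makes the calcitonin-like receptor respond to adrenomedullin, differed between rabbits as much as between groups. It was at 34.0 and 8.53 CPM in the BA and BT of rabbit 3, 217 and 45.9 CPM in rabbit 4, 208 and 215 CPM in rabbit 5 and 35.7 and 142 CPM in rabbit 6. The BT to BA ratio was low in both sham rabbits and near or above 1 in both ligated rabbits (3.13 ± 0.57, q = 0.00457). CLU, the secreted chaperone clusterin, was at 208 and 14.7 CPM in rabbit 3, 644 and 284 CPM in rabbit 4, 187 and 167 CPM in rabbit 5 and 21.2 and 85.9 CPM in rabbit 6, in the BA and the BT respectively (3.31 ± 0.67, q = 0.0123). In CLU the ratio was below 1 in rabbits 3, 4 and 5 and above 1 in rabbit 6 only. Neither RAMP2 nor CLU passed without rabbit 6. The CLU difference was 1.80 without the block (q = 0.867), and CLU did not pass with DESeq2 (q = 0.165), limma-voom (q = 0.269), filterByExpr (q = 0.167) or a robust prior (q = 0.749) either. The 11 endothelial markers summed to 489 and 545 CPM in the BA and BT of rabbit 3, 768 and 1542 CPM in rabbit 4, 996 and 1113 CPM in rabbit 5 and 436 and 850.1 CPM in rabbit 6. There was no call among 11 tested in edgeR, DESeq2 or limma-voom. In edgeR 2 of them were below an unadjusted p of 0.05, against 850 of all 9368 genes tested. The part of endothelial cells in the RAMP2 result was not tested.

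CIART, a repressor of the circadian clock, was not detected in the BA after ligation. It had 58.9 and 66.5 CPM in the BA of sham rabbits 3 and 4 and 0 counts in the BA of both ligated rabbits, while the BT held 19.7 and 31.6 CPM in sham and 6.07 and 4.77 CPM in ligated rabbits. Every ligated library was below every sham library. Against 3 counts per library, CIART was at least 56.66-fold lower at the BA. It was 4.74-fold lower at the BT, so the changes differed by at least 11.96-fold. The fitted difference of 9.27 ± 1.72 (q = 0.00665) depends on the empty libraries. The remaining higher genes were NCAM1, a cell adhesion molecule (4.42 ± 0.92), S100A10, the annexin A2 partner (1.97 ± 0.44), and LPAR6, a lysophosphatidic acid receptor (3.63 ± 0.85). NCAM1 was not called without rabbit 3, LPAR6 without rabbit 6, or S100A10 without either.

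Across the 47 genes the arms of the contrast were examined one by one, as a description, since the genes were called on their difference. By fitted sign, all 20 higher genes were lower in the BT than in the BA of sham rabbits. Of them 19 were higher in the BT than in the BA of ligated rabbits. The fitted BT level exceeded the BA level in sham rabbits for all 27 lower genes, and 26 were reversed in ligated rabbits. Single rabbits did not always follow. TIMP1 was at 845 CPM in the BA and 862 CPM in the BT of sham rabbit 4 (fitted sham difference -0.02). ACTA2 and BAG2 fell from BA to BT in that rabbit. CLU, CD74, CLIC1 and DCN were lower in the BT than in the BA of ligated rabbit 5. The BT to BA comparison passed in sham rabbits for 12 higher and 4 lower genes, among 53 calls of all genes (0.566%, 21 with more in the BT at 0.224% and 32 with less at 0.342%). In ligated rabbits it passed for 2 higher and 12 lower genes, among 37 calls (0.395%, 12 with more in the BT at 0.128% and 25 with less at 0.267%). The change with ligation had opposite signs at the 2 locations for 28 of 47 genes (59.6%) and for 38% of all genes tested, and calling genes on the difference favours opposite signs. Of the higher genes 10 passed at the BA, 9 of them decreased, and 5 passed at the BT, all increased. Of the lower genes 10 passed at the BA, all increased, and 5 passed at the BT, of which 3 decreased. Over all genes, 228 passed at the BA (2.43%, with 1.47% increased and 0.961% decreased) and 193 at the BT (2.06%, with 1.01% increased and 1.05% decreased), and 21 of the 47 genes passed at neither. The BT to BA ratios of ligated and sham rabbits did not overlap for any of the 47, as for 41.3% of all genes tested (22.8% with both ligated rabbits above and 18.5% with both below).

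**Figure D4:**
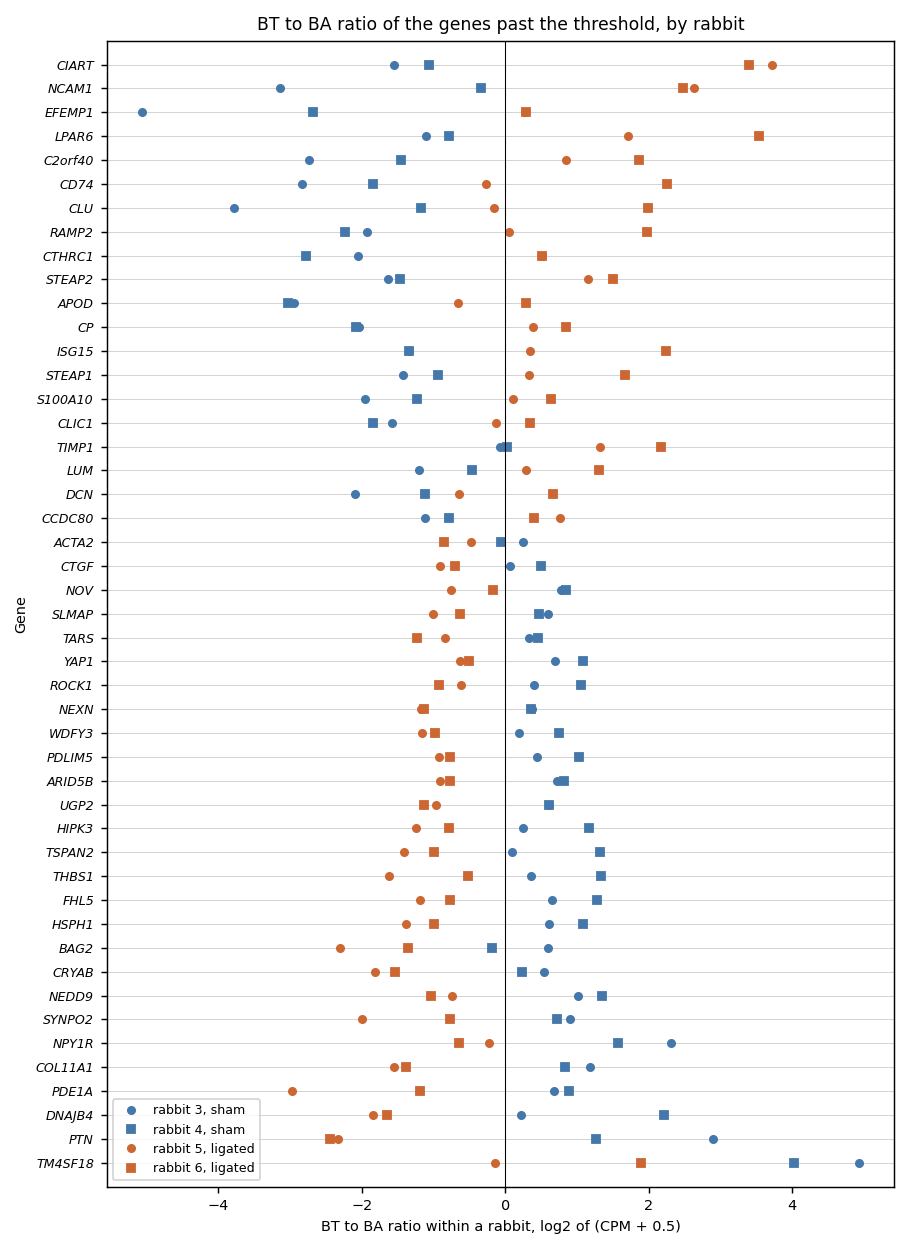
BT to BA ratio within each rabbit (horizontal axis, log2 of CPM + 0.5) for the 47 genes called, ordered by their difference, blue for sham and orange for ligated rabbits, with some points hidden behind others. Ligated rabbits lie to the right of sham rabbits for the 20 genes at the top and to the left for the 27 genes at the bottom.

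Of the other lists described, immediate early and KLF genes (15 tested), cytokines and chemokines (9), hypoxia and glycolysis genes (14), genes of Wnt, Notch, TGF-beta and BMP signalling (25) and cell cycle genes (12) held 0 calls, with medians of 0.31, 2.00, 0.39, -0.26 and 1.20. Of these 75 genes 13 had an unadjusted p below 0.05 in edgeR, DESeq2 called 2 and limma-voom 0. Over all 9368 genes tested, 850 were below that p and 0.502% were called. At that share, 0 calls among 75 genes does not show that these lists were unaffected. Relative to the median of all genes, the Wnt, Notch, TGF-beta and BMP list was at -0.39 both with TMM and with library size alone. The cytokine IL6 and the hyaluronan-binding protein TNFAIP6 rose at both locations, IL6 by 6.30 and 6.56 (q = 0.0103 and 0.0118) and TNFAIP6 by 4.08 and 5.63 (q = 0.0267 and 0.00657), and their differences of 0.18 and 0.74 did not pass. In sham libraries IL6 was at 0 CPM in the BA of rabbit 3 and the BT of rabbit 4, and at most 2.40 CPM. TNFAIP6 was at 0 CPM in the BA of sham rabbit 4 and at most 9.87 CPM in sham libraries. The sizes of these rises thus depend on empty or nearly empty libraries. Lipid mediator and lipoprotein genes held APOD as the 1 call of 13, with 12 above 0 and a median of 1.18. Just short of passing on the higher side were BCL2A1 (6.47, q = 0.0516), CCDC65 (1.67, q = 0.0518) and HSD11B1 (2.96, q = 0.0529). On the lower side these were FILIP1L (-1.35, q = 0.0516), TGFB2 (-1.48, q = 0.052) and TMEM184B (-1.49, q = 0.0529). Just within the threshold were UGP2 (q = 0.0494), LPAR6 and YAP1 (both q = 0.0496) and ACTA2 (q = 0.0497).

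The same contrast in the intima of the same rabbits gave 0 calls among 9641 genes (edgeR, smallest q-value 0.0576, 332 genes below an unadjusted p of 0.05). Of the 47 medial genes 24 had the same sign in the intima, 7 of the 20 higher and 17 of the 27 lower genes, which is 51.1% against 52% of all genes tested in both layers. CRYAB was at -1.27 in the intima, and CTHRC1 and STEAP1 at 3.16 and 1.89, none of them past the threshold. EFEMP1 and ISG15 had the opposite sign there, at -4.86 and -3.36. In the intimal BA and BT, EFEMP1 was at 113 and 1009 CPM in rabbit 3 and at 0.557 and 10.4 CPM in rabbit 4. It was at 0 CPM in both intimal libraries of rabbit 5 and at 5.55 and 2.19 CPM in rabbit 6. Its intimal value, and its difference between layers, thus depend on empty or nearly empty libraries. The difference between the layers was itself tested over all 16 libraries, and none of 10077 genes passed (edgeR, smallest q-value 0.0733, 475 below an unadjusted p of 0.05). ISG15 was first among the 47 with 6.0 ± 0.82 (q = 0.0733), followed by EFEMP1 with 8.95 ± 1.29 (q = 0.1). No gene was therefore shown to be particular to the media.

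**Figure D5:**
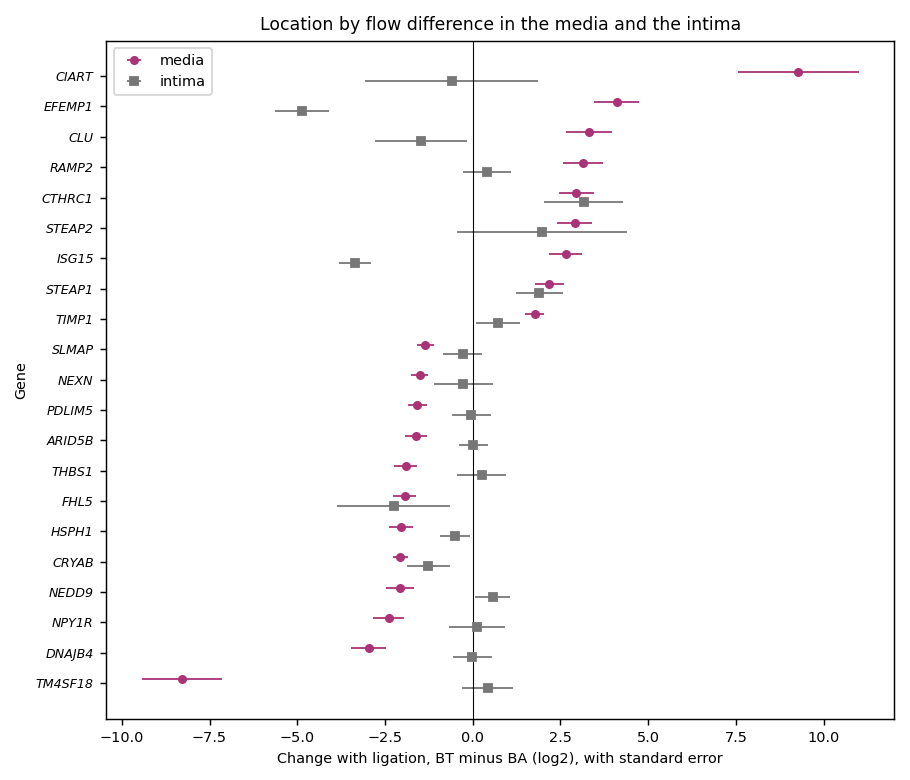
Location by flow difference (horizontal axis, log2 change with ligation at the BT minus that at the BA, bars for 1 standard error) in the media (circles) and in the intima (squares) for 21 of the genes described. CRYAB, CTHRC1 and STEAP1 lie on the same side of 0 in both layers, and EFEMP1 and ISG15 on opposite sides. APOD, CP and C2orf40 are not drawn because of their large intimal standard errors (6.77, 9.81 and 3.37). Their intimal values of -5.87, -7.22 and -2.27 were opposite in sign to the media.

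The fit left 2 residual degrees of freedom, and the number of calls moved from 1 to 189 over the alternatives tried. The 47 differences kept their sign in every alternative that gave a q-value. Leaving out each rabbit in turn, 17 of the 47 genes passed every time, and the fewest remained without rabbit 6 (24 of 47). Each such fit holds 1 rabbit in a flow group, which is assumed to vary like the other group, and calls over all genes rose to 178 and 189 without rabbits 3 and 4, so passing these fits is weak evidence of stability.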

How the data were processed

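RNA-seq was analysed for the 8 medial libraries, with the 8 intimal libraries for comparison. The authors used SMART-Seq v4 amplification and Nextera library kits, and aligned untrimmed single reads to oryCun2 (OryCun2.0) with STAR. Uniquely mapped reads on exons of Ensembl genes were counted with featureCounts 1.6.2 in its reverse-strand setting. The kit does not mark strand, so overlapping antisense genes cannot be told apart. The deposited values are raw counts for 13788 gene symbols, and 22 symbols had become dates. An entry without a symbol, with 13.8% to 16.7% of the medial counts, was left out. All columns were used.

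Tests used edgeR 4.0.16 (quasi-likelihood F test, legacy = TRUE, two-sided) in R 4.3.3, with TMM over the 8 libraries, genes with a mean above 1 CPM in at least 1 group, rabbit as a block, and Benjamini-Hochberg q-values over all genes tested with a threshold of 0.05. A rabbit's BA and BT are from 1 animal, which pairs them by design (correlation of deviations 0.216 in sham and 0.0685 in ligated rabbits). Changes with ligation at 1 location came from a fit of 4 group means without block, since sham and ligated rabbits are different animals. The 2 changes of a gene therefore need not subtract exactly to its printed difference, which came from the fit with the block. For C2orf40 the difference was 3.84 without the block and 3.49 with it. The difference between layers was fitted over 16 libraries with rabbit within layer as block. SE is the log2 value divided by the square root of F. With 2 rabbits against 2, an exact permutation test cannot go below p = 0.333. For libraries with 0 counts of a gene, 3 counts were taken as the upper limit (95%, counting error only). Chi-square per degree of freedom between replicates was 22.5 to 106.

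All genes past the threshold are named, the 12 with the smallest p in each direction with all 8 values (APOD and CP in passing), along with the called members of 22 gene lists. The members and lists were chosen with earlier results of these data known. No set test was run. Alternatives were no block, RLE scaling, library size alone, other filters, DESeq2 1.42.0, limma-voom (limma 3.58.1), edgeR's version 4 form, a robust prior, thinned counts and leaving out each rabbit. Gene order was read from RefSeq assembly mOryCun1.1, where 43 of the 47 symbols were found, and no coordinates or sequences are printed. Figures were drawn with matplotlib 3.10.9.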

Additional observations from a re-analysis of the deposited data

Results flagged for a closer look

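In the media, 47 genes changed differently with ligation at the bifurcation and in the straight artery, by the test of that difference itself (edgeR quasi-likelihood F test with rabbit as a block, q-value below 0.05, 2 rabbits per flow group). The values are the log2 change at the BT minus the log2 change at the BA, and no explanation was weighed. The change was higher at the BT for APOD (2.80), CP (2.69), TIMP1 (1.77), C2orf40 (3.49), EFEMP1 (4.10), CTHRC1 (2.95), STEAP2 (2.91), ISG15 (2.65), RAMP2 (3.13), CIART (9.27), STEAP1 (2.19), CLU (3.31), NCAM1 (4.42), CD74 (3.39), CLIC1 (1.84), DCN (1.61), S100A10 (1.97), LUM (1.64), CCDC80 (1.54) and LPAR6 (3.63). A lower change at the BT was measured for CRYAB (-2.06), TM4SF18 (-8.29), NEXN (-1.52), HSPH1 (-2.04), PDLIM5 (-1.58), DNAJB4 (-2.97), THBS1 (-1.91), FHL5 (-1.94), SLMAP (-1.35), NPY1R (-2.40), NEDD9 (-2.07), ARID5B (-1.61), PDE1A (-2.85), NOV (-1.28), ROCK1 (-1.50), COL11A1 (-2.50), BAG2 (-2.04), TARS (-1.44), HIPK3 (-1.72), PTN (-5.33), TSPAN2 (-1.91), WDFY3 (-1.54), SYNPO2 (-2.18), CTGF (-1.08), UGP2 (-1.66), YAP1 (-1.46) and ACTA2 (-0.76). The fitted values of CIART and TM4SF18 rest on groups with 0 counts, and with 3 counts per library in their place these differences were 3.58 and -4.63.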

How the results depend on the processing

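The count of 47 medial genes moved most with the test and the block. Without the replicate block (rabbit) 2 genes passed and 45 of 47 fell short, APOD and CP being the 2. The version 4 form of edgeR's test called 1, edgeR's filterByExpr 14, all genes with a count 151, thinning to the shallowest library 136 and DESeq2 156, which included 40 of the 43 genes it gave a q-value. Leaving out each rabbit gave 31 to 189 calls, with 31 without rabbit 6, 109 without rabbit 5, 178 without rabbit 3 and 189 without rabbit 4. RLE scaling (46), library size alone (45, of which 33 were among the 47), limma-voom (33, of which 24) and a robust prior (58, of which 40) stayed within 1.5 times of 47. ISG15, CLU, CD74, DCN, DNAJB4, THBS1 and ACTA2 fell short with the robust prior, and CLU, THBS1 and ACTA2 with DESeq2. With limma-voom 23 of the 47 fell short. Of the higher genes these were EFEMP1, RAMP2, CIART, CLU, NCAM1, CD74, CLIC1, S100A10, LUM, CCDC80 and LPAR6. Of the lower genes they were TM4SF18, DNAJB4, NPY1R, PDE1A, BAG2, HIPK3, PTN, TSPAN2, WDFY3, SYNPO2, UGP2 and YAP1. No gene of the 47 changed its sign in any alternative that gave a q-value, and CRYAB passed in each but the fit without the block. The intima went from 0 calls to 1 with library size alone and to 0 to 176 without a rabbit, the 176 without rabbit 6. The test between layers went from 0 to 4 with library size alone and to 0 to 11 without a rabbit, the 11 again without rabbit 6. Without the replicate block both stayed at 0. The causes were not tested. Depth limits genes near 0, where 3 counts are 0.261 to 1.47 CPM.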

Other observations

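Markers of other cells were followed in the media by their counts only. The 4 blood cell genes tested all had differences above 0 (median 2.12, against 0.12 for all genes) with 0 calls (edgeR, DESeq2 and limma-voom). In edgeR 2 of them were below an unadjusted p of 0.05, against 850 of all 9368 genes tested. These values stand beside the low blood levels of rabbit 3. The 4 perivascular nerve markers had a median of 0.13 and 0 calls, the 4 brain markers tested -3.52 and 0 calls, and the 1 lymphocyte gene tested was at -0.27, with 0 of these below an unadjusted p of 0.05 in edgeR.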
